A study of Mus musculus with 45 samples.

Results

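Ifit1, Ifit2, Ifit3, Isg15, Irf7, Ifi204, Ifi202b, Gbp2 and Gbp2b are 9 interferon-induced genes, followed here through 3 tissues of mice of 2 strains on 2 diets. They were chosen by symbol, and the choice drew on strain differences seen earlier in the same arrays, so the strain differences are described without a test. The selection named Ifi202b and Gbp2b as genes whose strain difference holds in all tissues; the values given for Gbp2b in liver go against that. All 9 genes were on the array, with 12 of the 10833 probe sets that carry 1 gene symbol, and they are 9 of the 8251 genes tested. Ifi204 had 3 probe sets and Irf7 had 2, and for each gene the one with the highest mean was used.

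The RNA came from mice of the strains C57Bl/6 (B6) and 129S6/SvEvTac (129S6), aged 6 months and fed either low-fat or high-fat food, and from 3 of their tissues: liver, skeletal muscle and epididymal fat pads. An array, of which there were 45, was hybridised with biotinylated cRNA, for which 25 µg of RNA pooled from 2 to 3 mice was used, so the spread between arrays is that between pools, and nothing says how many separate animals a group held in all. Liver had 4 arrays in each group. In muscle the low-fat B6 group had 3 arrays and the other groups 4; in fat both B6 groups had 4 and both 129S6 groups 3. The design text describes 1 diet, in which fat gave 21%, carbohydrate 57% and protein 22% of the calories, and does not say which of the 2 it was. Values are RMA signals in log2 units, in which a difference of 1 is a factor of 2.

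Type I interferons are secreted, for example, by cells that sense viral or bacterial nucleic acid. Interferons bind receptors that signal through Janus kinases and STAT proteins. Type I interferons switch on genes through a promoter element called the ISRE (interferon-stimulated response element), while interferon gamma acts largely through another, called GAS. In liver, fat and muscle such genes are known to be expressed by resident macrophages as well as by the parenchymal cells, and a basal level is kept up without infection. In RNA from a whole tissue, more cells of a type and more RNA per cell cannot be told apart.

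The promoters that hold the ISRE core are shown because the 9 genes were grouped as interferon-induced and the array values do not show the element. RefSeq windows of 300 bases on GRCm38.p6, from 250 bases before to 50 after the annotated start, were at hand for 8 of the 9 genes. The core, GAAA followed after any 2 bases by a second GAAA, was searched on both strands. It was found in 5 of those 8 genes and in 3.44% of all 32851 windows of the same length. The 250 bases before the start are printed 5′ to 3′ on the strand of the gene, with matches to the core in capitals.
Ifit1, chr19:34640639-34640888, plus strand: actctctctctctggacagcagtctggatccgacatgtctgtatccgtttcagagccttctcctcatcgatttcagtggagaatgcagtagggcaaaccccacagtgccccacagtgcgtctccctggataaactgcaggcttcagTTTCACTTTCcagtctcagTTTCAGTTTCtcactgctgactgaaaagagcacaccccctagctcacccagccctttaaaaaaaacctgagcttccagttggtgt
Ifit3, chr19:34583279-34583528, plus strand: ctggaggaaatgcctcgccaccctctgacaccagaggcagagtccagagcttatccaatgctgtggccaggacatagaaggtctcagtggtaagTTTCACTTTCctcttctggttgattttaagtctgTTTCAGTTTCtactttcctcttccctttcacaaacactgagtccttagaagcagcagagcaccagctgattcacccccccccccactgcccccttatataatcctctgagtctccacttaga
Isg15, chr4:156200819-156201068, minus strand: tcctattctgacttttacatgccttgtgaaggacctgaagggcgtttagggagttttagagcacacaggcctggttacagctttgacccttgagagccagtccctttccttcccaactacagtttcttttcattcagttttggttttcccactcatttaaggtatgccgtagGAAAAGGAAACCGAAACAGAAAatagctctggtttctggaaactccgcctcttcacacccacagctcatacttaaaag
Gbp2, chr3:142620413-142620662, plus strand: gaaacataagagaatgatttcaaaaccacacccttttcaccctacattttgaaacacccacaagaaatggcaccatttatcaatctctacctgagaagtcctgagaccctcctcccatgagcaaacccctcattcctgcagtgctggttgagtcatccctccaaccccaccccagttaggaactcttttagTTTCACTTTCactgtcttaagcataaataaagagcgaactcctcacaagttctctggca
Gbp2b, chr3:142594597-142594846, plus strand: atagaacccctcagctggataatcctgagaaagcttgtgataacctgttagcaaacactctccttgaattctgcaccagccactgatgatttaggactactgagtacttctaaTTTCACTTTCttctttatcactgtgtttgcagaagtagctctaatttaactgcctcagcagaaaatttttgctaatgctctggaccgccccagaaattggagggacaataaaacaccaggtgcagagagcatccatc
Ifit1 held 2 matches, at positions -104 to -95 and -85 to -76, where 0 is the annotated start. Ifit3 held 2 as well, at -156 to -147 and -122 to -113. In both genes the upstream match read TTTCACTTTC and the downstream one TTTCAGTTTC. The single match of Gbp2, at -59 to -50, and that of Gbp2b, at -137 to -128, also read TTTCACTTTC. In Isg15, 3 matches overlapped in 1 stretch of 22 bases at -78 to -57. The windows of Ifit2, Irf7 and Ifi202b held no match to these letters. A search for the GAS letters TTCNNNGAA matched in Ifit2 and Ifi202b, and in 8.3% of all windows. These are sequences of the C57BL/6J reference, and the 129S6 sequence was not used here. In the annotation, Gbp2b and Gbp2 are neighbours on chromosome 3, Ifit2 and Ifit3 are neighbours on chromosome 19 with Ifit1 3 protein-coding genes further, and Ifi204 and Ifi202b lie on chromosome 1 with 3 protein-coding genes between them.

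A few arrays stood apart, and most results that rest on them are given with and without them. In liver, replicate 13 of the B6 high-fat group had the highest value of all 16 liver arrays for 8 of the 9 genes, against 8.97% of all genes. Its signal difference between the 3′ and 5′ control probe sets of Gapdh, a measure of RNA integrity, was 0.32, within the 0.23 to 0.35 of its group. Replicate 11 of the 129S6 low-fat liver group had a Gapdh difference of 3.26, against 0.04 to 0.41 in the other 129S6 liver arrays. It held the highest liver value for 0 of the 9 genes and for 15% of all genes. In fat, replicate 7 of the B6 high-fat group had the highest value of the 14 arrays for 4 of the 9 genes, but also for 25.5% of all genes, and a Gapdh difference of 6.03. Replicates 12 and 13 of the 129S6 high-fat group had Gapdh differences of 5.81 and 5.93, while replicate 14 had 0.37. In muscle, replicate 9 of the 129S6 low-fat group had the highest value for 4 of the 9 genes and the narrowest distribution of all arrays, with an SD over genes of 1.57. Marker genes matched the labelled tissues: the summed signal of 5 hepatocyte genes was 14.5 to 15.27 in liver and at most 13.45 elsewhere, that of 5 muscle fibre genes 13.07 to 14.88 in muscle and at most 10.06 elsewhere, and that of 3 adipocyte genes 13.06 to 13.67 in fat and at most 10.93 elsewhere. Markers of epididymis and testis ranged from 7.52 to 12.76 among the fat arrays, and their part in any fat value was not tested.

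**Figure D1:**
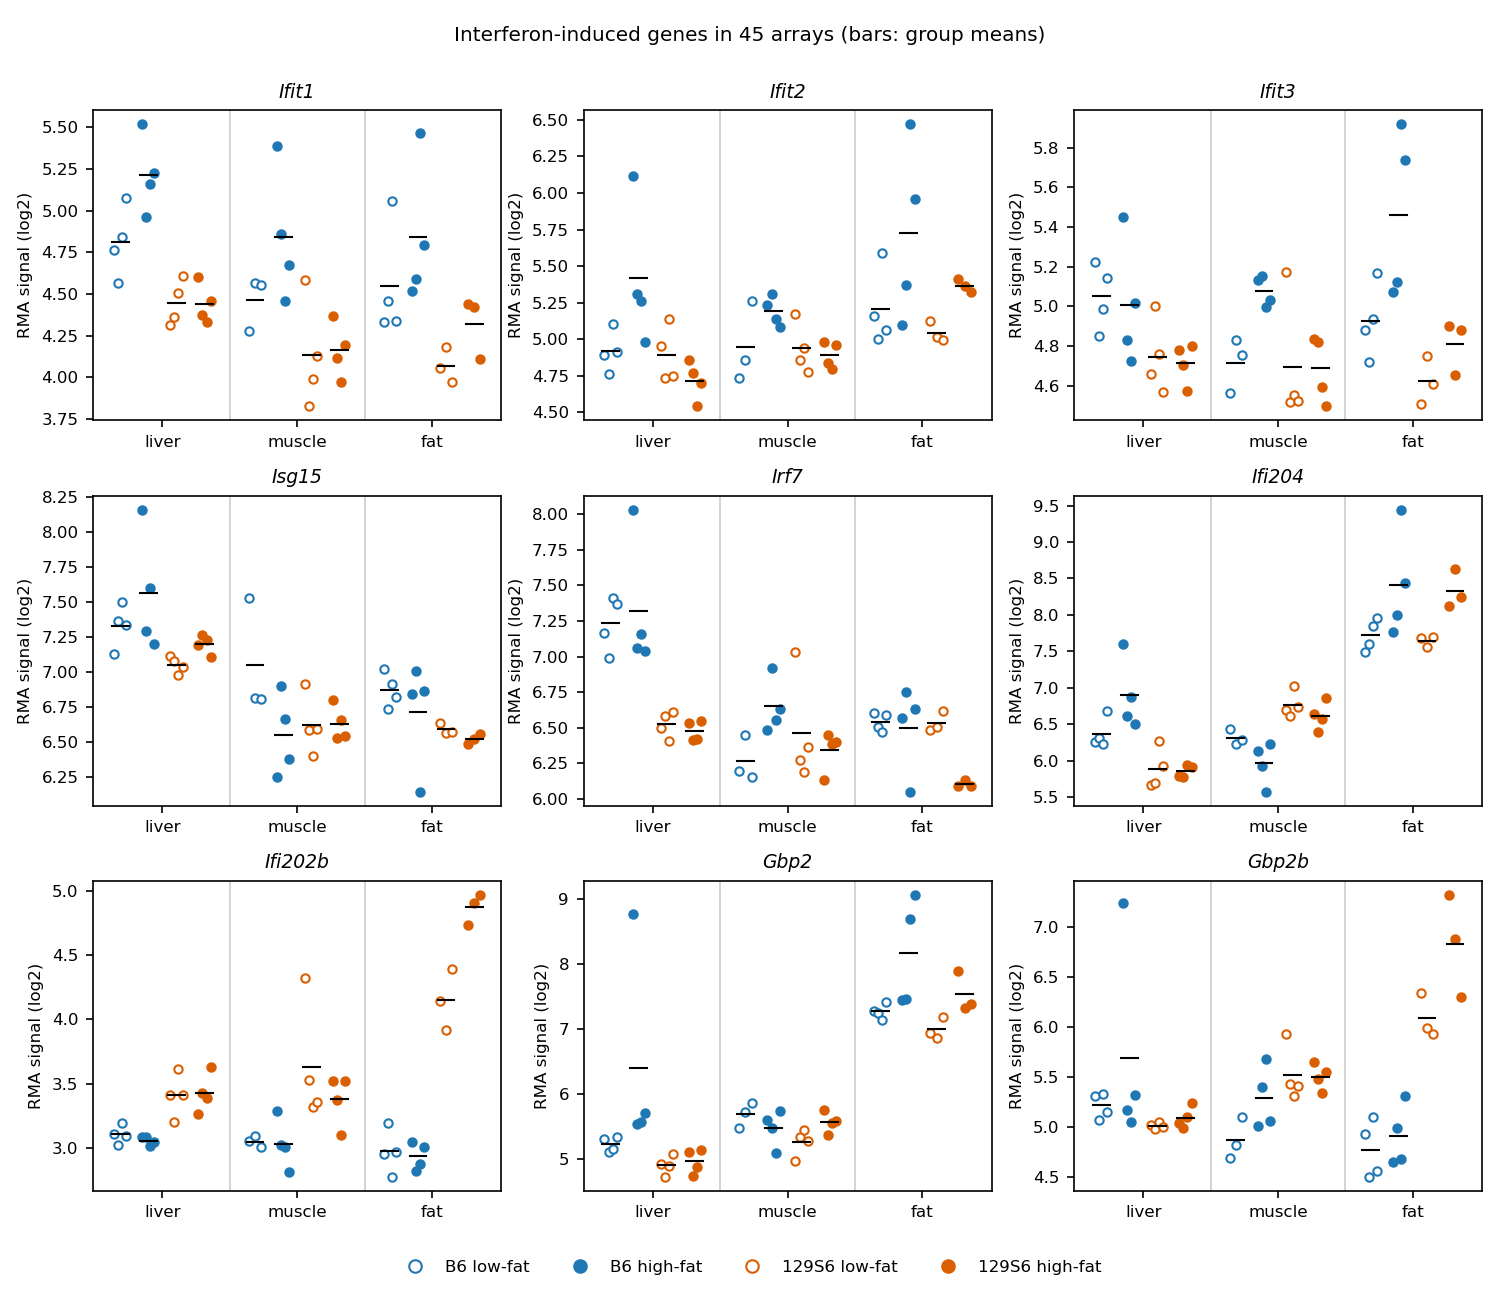
RMA signal (log2, y axis) of each of the 9 genes in every array, by tissue (x axis), strain (colour) and diet (open, low-fat; filled, high-fat), with a bar at each group mean. The 129S6 fat arrays of Ifi202b lie at 3.91 or above while all B6 fat arrays lie at 3.20 or below, and 1 B6 high-fat liver array stands at 8.76 for Gbp2 with the other 3 at 5.71 or below.

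The genes differed in where they were highest. By the probe sets used, Gbp2 and Ifi204 were highest in fat, and Isg15 and Irf7 in liver. In the main fit Ifit3 did not pass in any pair of tissues. The other probe sets of Ifi204 and Irf7 gave no such clear order. Tissue differences are means of the 4 groups of a tissue against those of another, tested with limma and adjusted over all genes. Between liver and muscle 3 of the 9 genes passed, between fat and muscle 5, and between fat and liver 8, where 68%, 71.5% and 57.7% of all genes passed, so the counts by themselves do not set the 9 genes apart.

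Gbp2, a guanylate-binding protein that helps destroy vacuoles holding intracellular pathogens, ranged from 6.87 to 9.06 with a median of 7.35 in the 14 fat arrays, from 4.97 to 5.87 in muscle and from 4.73 to 8.76 in liver. Every fat array was above every muscle array, and the overlap with liver came from replicate 13 alone. The difference was 1.99 ± 0.20 (SE) between fat and muscle, a factor of 3.98 (adjusted p = 7.31e-11), and 2.12 ± 0.20 between fat and liver, a factor of 4.33 (adjusted p = 8.69e-12). Ifi204, a member of the p200 family that binds DNA in the nucleus and cytosol, ranged from 7.49 to 9.45 in fat, from 5.58 to 7.02 in muscle and from 5.67 to 7.60 in liver. It was 1.61 ± 0.12 higher in fat than in muscle (adjusted p = 1.57e-14) and 1.78 ± 0.12 higher than in liver (adjusted p = 3.17e-16). The Ifi204 probe set used carries the suffix that marks probes shared by a gene family, so related p200 genes may contribute to its signal. The dimmer Ifi204 probe sets did not set fat apart. The brighter of them had group means of 4.85 to 5.10 in fat, 4.90 to 5.04 in muscle and 4.60 to 4.91 in liver. The dimmest had 2.86 to 3.09 in fat, 2.89 to 3.18 in muscle and 2.69 to 2.88 in liver. It was brighter than only 0.3% of genes and may be too dim to show a tissue difference. Of 8 measured macrophage markers, 6 were also higher in fat than in each other tissue and 1 was lower, with summed signals of 10.58 to 12.57 in fat, 9.92 to 11.55 in liver and 9.78 to 10.93 in muscle; their part in the levels of Gbp2 and Ifi204 was not tested.

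Isg15, a ubiquitin-like protein that is coupled to other proteins after interferon, had a median of 7.21 in liver, 6.65 in muscle and 6.69 in fat. Its liver level was 0.57 ± 0.09 above muscle (adjusted p = 3.78e-07), and fat was below liver, with a difference of -0.61 ± 0.09 (adjusted p = 2.02e-07). Irf7, the transcription factor that amplifies type I interferon production, was 0.46 ± 0.08 higher in liver than in muscle (adjusted p = 1.03e-05) and lower in fat than in liver by the same amount (difference -0.47 ± 0.09, adjusted p = 1.25e-05). Irf7 stood higher in liver through the B6 arrays, which spanned 6.99 to 8.03, while the 129S6 arrays spanned 6.41 to 6.61 in liver and 6.09 to 6.62 in fat. The second Irf7 probe set did not set liver apart. Its group means were 5.77 to 6.14 in liver, 5.84 to 6.22 in muscle and 5.76 to 5.95 in fat. For Isg15 the 129S6 liver arrays, at 6.98 to 7.27, were also above all 129S6 fat arrays, at 6.49 to 6.64.

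The 3 Ifit genes encode proteins with tetratricopeptide repeats that bind foreign RNA or block its translation. Ifit1 was 0.33 ± 0.09 higher in liver than in muscle (adjusted p = 0.00251) and 0.28 lower in fat than in liver (difference -0.28 ± 0.10, adjusted p = 0.0112). Ifit2 was higher in fat, by 0.34 ± 0.10 over muscle (adjusted p = 0.00348) and 0.35 ± 0.10 over liver (adjusted p = 0.00335). Ifit3 differed by at most 0.16 between any pair of tissues, and its smallest adjusted p was 0.0839. After quantile normalization Ifit3 passed in 2 of the 3 comparisons, at 0.19 for liver minus muscle (adjusted p = 0.035) and 0.26 for fat minus muscle (adjusted p = 0.00448). Between fat and muscle Ifit3 also passed without replicate 9 of 129S6 low-fat muscle, at 0.20 (adjusted p = 0.0225). It passed as well without replicate 2 or 6 of B6 high-fat fat (adjusted p = 0.0342 and 0.0405). The means of Ifi202b and Gbp2b were also higher in fat than in both other tissues, by 0.35 to 0.48, although no B6 fat array exceeded 3.20 for Ifi202b and the B6 fat groups held 2 of the 3 lowest means of Gbp2b. Without replicate 9 or replicate 12 of the 129S6 fat arrays, Gbp2b no longer passed between fat and muscle (adjusted p = 0.0524 and 0.0699).

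Across the 12 groups ordered by mean, neighbouring groups mostly overlapped. For Ifit1, Ifit2, Ifit3, Isg15, Gbp2 and Gbp2b the arrays of every pair of neighbouring groups overlapped. Irf7 had 2 separate steps, 1 below the B6 liver groups and 1 above the lowest group, 129S6 fat on the high-fat diet. Ifi204 had 1, between the fat groups of 129S6 on the high-fat diet and of B6 on the low-fat diet, and Ifi202b had 1, between the 129S6 fat groups of the 2 diets. Ifi202b had a mean of 3.38 over all arrays, brighter than only 2.5% of genes, and B6 arrays never exceeded 3.29, so a B6 level cannot be told from an empty probe set on this scale.

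**Figure D2:**
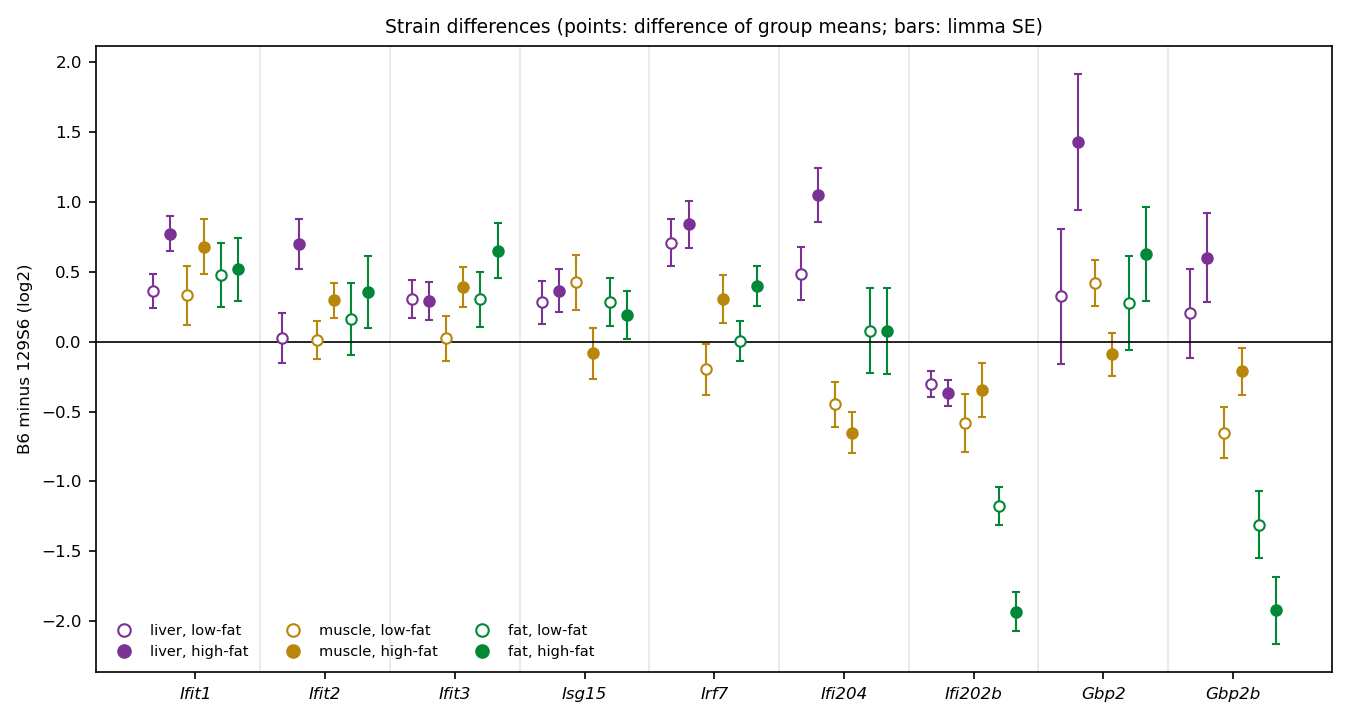
Strain differences, B6 minus 129S6 (log2, y axis), of the 9 genes (x axis) in each tissue (colour) on the low-fat (open) and high-fat (filled) diet, with SE bars from limma. Ifi202b lies below 0 in all 6 comparisons, Gbp2b lies below 0 in muscle and fat but above 0 in liver, and Ifit1 lies above 0 in all 6.

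By group means, the strain difference ran one way in all tissues for Ifi202b, lower in B6, and for Ifit1, higher in B6. Ifit2 and Ifit3 also had higher B6 means in each comparison. Their smallest differences, 0.01 ± 0.14 and 0.02 ± 0.16 in muscle on the low-fat diet, were far below their SE. Gbp2b and Ifi204 ran opposite ways in different tissues. These contrasts chose the genes, so no test is given. Beside each count of genes whose arrays do not overlap between the strains stands the share of all genes that do not overlap. On the low-fat diet it was 5 of 9 in liver (16.3% of all genes), 4 in muscle (8.91%) and 4 in fat (21.5%); the muscle count was 7 without replicate 9 of 129S6, with 3 arrays left on each side. On the high-fat diet it was 6 in liver (17.8%), 5 in muscle (35.9%) and 4 in fat (5.04%). The muscle count on the high-fat diet was 2 after quantile normalization, which moved Ifit2 from 0.30 to 0.12 and Ifit3 from 0.39 to 0.21. In that comparison the median of all genes lay at 0.14 in the deposited values. After the same normalization the fat counts were 6 on the low-fat and 5 on the high-fat diet.

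Ifi202b encodes a p200 protein with DNA-binding domains but no pyrin domain, known as an inhibitor of the AIM2 inflammasome and for levels that vary widely between inbred strains. In fat on the low-fat diet the B6 arrays read 2.95, 3.20, 2.78 and 2.97 and the 129S6 arrays 4.14, 3.91 and 4.39. With high-fat food the B6 arrays read 3.05, 2.82, 2.87 and 3.01 and the 129S6 arrays 4.74, 4.91 and 4.97. All 6 of the 129S6 arrays were above all 8 of the B6 arrays. The difference in signal was -1.18 ± 0.14 with low-fat food and -1.93 ± 0.14 with high-fat food. Since the B6 signal cannot be told from an empty probe set, these give no fold between the strains, here or in the other tissues. The strains fell into separate runs of array numbers in fat except for 129S6 low-fat replicate 9, which shares the run of the B6 arrays and read 4.14.

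In liver Ifi202b differed less between the strains, by -0.30 ± 0.09 and -0.37 ± 0.09. The 8 B6 liver arrays lay between 3.02 and 3.20 and the 8 of 129S6 between 3.20 and 3.63, with no overlap within either diet. In muscle on the low-fat diet the B6 arrays read 3.05, 3.09 and 3.00 and the 129S6 arrays 4.32, 3.53, 3.32 and 3.36, a difference of -0.58 ± 0.21. It was -0.35 without replicate 9, which read 4.32. On the high-fat diet the muscle arrays overlapped, with B6 at 2.81 to 3.29 and 129S6 at 3.10 to 3.52. Over all genes, 6 were lower in B6 without overlap in at least 5 of the 6 comparisons, Ifi202b among them.

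Gbp2b, also known as Gbp1, is a guanylate-binding protein and a neighbour of Gbp2, known from strains that differ in its induction by interferon. In fat on the low-fat diet the B6 arrays read 4.93, 4.51, 5.10 and 4.57 and the 129S6 arrays 6.33, 5.99 and 5.93. High-fat B6 arrays read 4.65, 4.99, 4.68 and 5.31 and the 129S6 arrays 7.32, 6.88 and 6.30. The strains did not overlap on either diet, and replicate 9, the 129S6 array in the run of the B6 arrays, read 6.33. The differences were -1.31 ± 0.24, a factor of 2.48, and -1.92 ± 0.24, a factor of 3.79.

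In muscle on the low-fat diet Gbp2b read 4.70, 4.82 and 5.10 in B6 and 5.93, 5.43, 5.32 and 5.42 in 129S6. The groups did not overlap, with a difference of -0.65 ± 0.18, or -0.51 without replicate 9. The high-fat muscle groups overlapped, at -0.21 ± 0.17. In liver the order was the other way round. On the low-fat diet the B6 liver arrays read 5.31, 5.08, 5.33 and 5.16 and the 129S6 arrays 5.03, 4.99, 5.05 and 5.00. B6 was higher without overlap, by 0.20, although the SE of 0.32, shared by the 4 liver groups and widened by replicate 13, was larger than the difference. On the high-fat diet the liver difference of 0.60 ± 0.32 rested on replicate 13, at 7.24, and was 0.09 without it. Averaged over the diets, the strain difference of Gbp2b was 0.40 ± 0.19 in liver, -0.43 ± 0.20 in muscle and -1.62 ± 0.21 in fat. The liver average includes replicate 13 and rests in part on it.

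Gbp2, its neighbour, was not lower in B6 fat. The mean of B6 was above that of 129S6 in 5 of 6 comparisons, and the arrays did not overlap in liver on either diet or in muscle on the low-fat diet. In liver on the low-fat diet the B6 arrays read 5.31, 5.11, 5.15 and 5.34 and the 129S6 arrays 4.92, 4.73, 4.89 and 5.08. After high-fat food the B6 arrays read 8.76, 5.54, 5.56 and 5.71 and the 129S6 arrays 5.11, 4.74, 4.87 and 5.14. The other 3 B6 arrays were still above all 129S6 arrays. The high-fat difference was 1.43 ± 0.49, and 0.64 without replicate 13. In fat the Gbp2 differences were 0.28 ± 0.34 and 0.63 ± 0.34, with overlap.

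Irf7 differed between the strains in liver. On the low-fat diet the B6 arrays read 7.17, 6.99, 7.41 and 7.37 and the 129S6 arrays 6.50, 6.58, 6.41 and 6.61. With high-fat food the B6 arrays read 8.03, 7.06, 7.16 and 7.04 and the 129S6 arrays 6.54, 6.42, 6.42 and 6.55. Every B6 liver array was above every 129S6 liver array, by 0.71 ± 0.17 and 0.84 ± 0.17 on average, and the latter was 0.61 without replicate 13. In muscle the low-fat and high-fat differences were -0.20 ± 0.18 and 0.31 ± 0.17, and in fat 0.01 ± 0.14 and 0.40 ± 0.14, with overlap in 3 of these 4 comparisons. The second Irf7 probe set gave smaller liver differences, 0.22 ± 0.10 and 0.15 ± 0.10. Averaged over the diets, the strain difference of Irf7 was 0.78 ± 0.12 in liver, 0.05 ± 0.12 in muscle and 0.20 ± 0.13 in fat.

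Ifi204 was higher in B6 liver and lower in B6 muscle. In liver on the high-fat diet the B6 arrays read 7.60, 6.62, 6.88 and 6.50 and the 129S6 arrays 5.79, 5.77, 5.94 and 5.91, with no overlap. In muscle on the high-fat diet the B6 arrays read 6.14, 5.92, 5.58 and 6.23 and the 129S6 arrays 6.64, 6.40, 6.57 and 6.86, with no overlap in the opposite direction. The difference was 1.05 ± 0.19 in liver, or 0.81 without replicate 13, and -0.65 ± 0.15 in muscle. On the low-fat diet it was 0.49 ± 0.19 in liver, with overlap, and -0.45 ± 0.16 in muscle, without. The liver overlap came from 129S6 replicate 11 alone, at 6.26. The B6 arrays lay at 6.23 to 6.68 and the other 129S6 arrays at 5.67 to 5.92. In fat the strains were close, at 0.08 ± 0.31 on both diets. The 2 dimmer Ifi204 probe sets, brighter than only 16.8% and 0.3% of genes, did not follow. The dimmest may be too dim to show a difference. The first gave -0.25 ± 0.11 and 0.08 ± 0.11 in liver and -0.05 ± 0.12 and 0.14 ± 0.11 in muscle, low-fat before high-fat, and the other 0.17 ± 0.08 and 0.19 ± 0.08 in liver and 0.06 ± 0.18 and 0.30 ± 0.16 in muscle.

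Ifit1 had a higher mean in B6 in 6 of 6 comparisons, by 0.33 to 0.77, and did not overlap in 4. In liver on the high-fat diet the B6 arrays read 5.52, 4.96, 5.16 and 5.23 and the 129S6 arrays 4.60, 4.38, 4.33 and 4.46. The 2 groups were apart by 0.77 ± 0.12, or 0.67 without replicate 13. Over all genes, 54 were higher in B6 without overlap in at least 4 of the 6 comparisons. Ifit2 and Ifit3 also had higher B6 means in 6 of 6, from 0.01 to 0.70 for Ifit2 and from 0.02 to 0.65 for Ifit3, and each was without overlap in 2. Isg15 had a higher B6 mean in 5 of 6, with no overlap in liver and fat on the low-fat diet, where the differences were 0.28 ± 0.15 and 0.28 ± 0.17. In liver the strain difference on the low-fat diet cannot be told apart from the run of array numbers, because all 4 B6 low-fat arrays form a run of their own, and on the high-fat diet the strains lie in separate runs too.

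**Figure D3:**
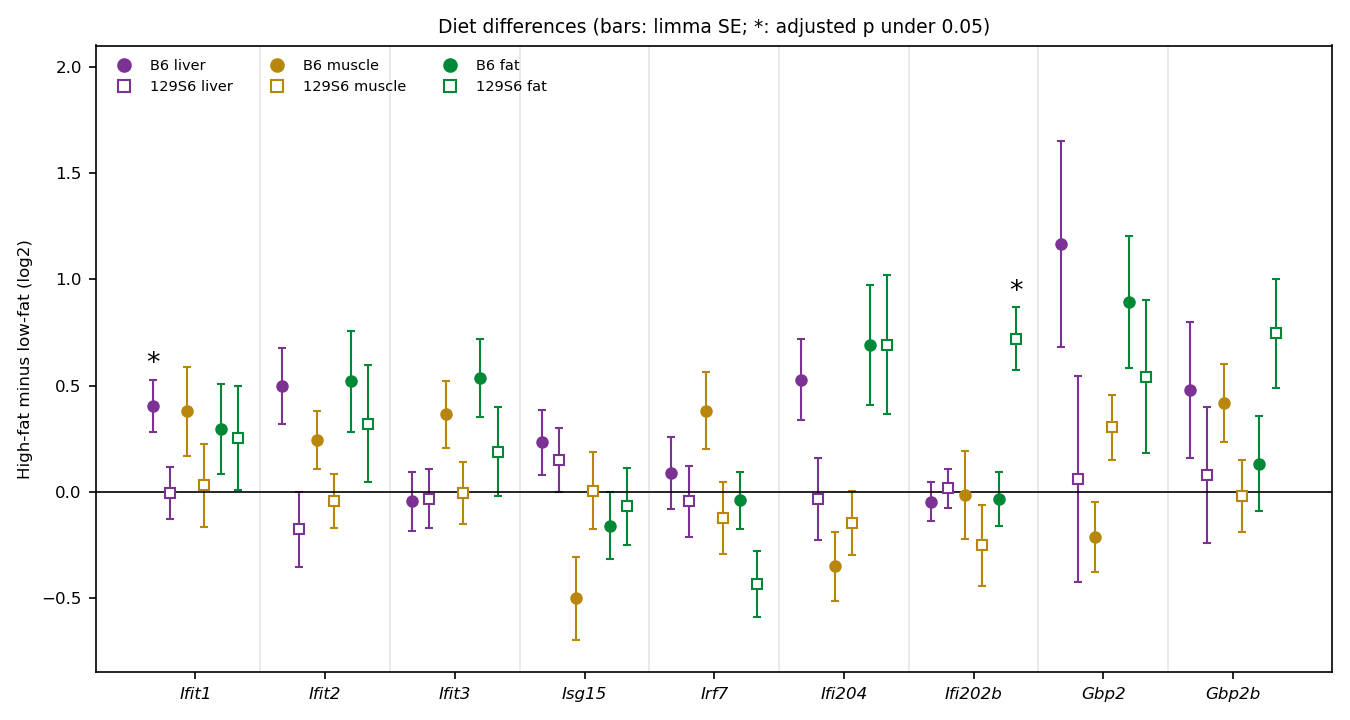
Diet differences, high-fat minus low-fat (log2, y axis), of the 9 genes (x axis) in each tissue (colour) of B6 (circles) and 129S6 (open squares) mice, with SE bars from limma; asterisks mark an adjusted p under 0.05. Ifit1 in B6 liver, at 0.41, and Ifi202b in 129S6 fat, at 0.72, are the 2 of 54 differences that passed.

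The high-fat diet came with higher Ifit1 in B6 liver and higher Ifi202b in 129S6 fat, and with no other change that passed. In B6 liver 1 of the 9 genes passed, where 18.1% of all genes did, 6.25% in the higher direction. The median difference of the 9 was 0.41, against 0.02 for all genes, but 0.03 without replicate 13. Ifit1 read 4.76, 4.56, 4.84 and 5.08 with low-fat food and 5.52, 4.96, 5.16 and 5.23 with high-fat food. The ranges overlapped by 1 array on each side, and the difference was 0.41 ± 0.12 (adjusted p = 0.0314). It no longer passed after quantile normalization (0.33, adjusted p = 0.0829) or without any 1 of 6 of the 8 arrays, with adjusted p from 0.0544 to 0.0999, among them replicate 13 (0.31, adjusted p = 0.0999).

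Gbp2 had the largest mean difference in B6 liver, 1.17 ± 0.49, which did not pass (adjusted p = 0.102) and rested on replicate 13. Without that array the spread shrank and the difference was 0.38 with an adjusted p of 0.0375: the other 3 high-fat arrays, at 5.54 to 5.71, were all above the low-fat arrays, at 5.11 to 5.34. Ifi204 and Ifit2 stood at 0.53 ± 0.19 (adjusted p = 0.0653) and 0.50 ± 0.18 (adjusted p = 0.0613). With the Gapdh 3′ minus 5′ signal as a covariate both passed, at 0.70 (adjusted p = 0.0156) and 0.58 (adjusted p = 0.0399), and without replicate 13 they were 0.29 and 0.27. Without replicate 16 of the high-fat group both passed as well (adjusted p = 0.0356 and 0.0243). Gbp2b stood at 0.48 ± 0.32 with replicate 13 and at -0.04 without it. Isg15, Irf7, Ifit3 and Ifi202b differed by 0.23 or less. The low-fat and high-fat B6 liver arrays lie in separate runs of array numbers, so diet and run cannot be told apart in this comparison. The Gapdh difference also separated these groups, at 0.82 to 1.69 on the low-fat and 0.23 to 0.35 on the high-fat diet.

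In 129S6 liver none of the 9 genes passed in limma, where 0.158% of all genes did, and none had an unadjusted p under 0.05, against 529 of all genes. Their differences lay between -0.18 for Ifit2 and 0.15 for Isg15. The test of whether the diet difference itself differed between the strains passed for none of the 9 in liver, where 5.44% of all genes passed; at an unadjusted p under 0.05 there were 2, Ifit2 with a difference of differences of 0.68 ± 0.25 (adjusted p = 0.13) and Ifit1 with 0.41 ± 0.17 (adjusted p = 0.185). The fact that Ifit1 passed in B6 liver and not in 129S6 liver is therefore no difference that was shown by a test.

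In 129S6 fat 1 of the 9 genes passed, where 0.703% of all genes did. Ifi202b read 4.14, 3.91 and 4.39 with low-fat food and 4.74, 4.91 and 4.97 with high-fat food. The groups did not overlap, and the difference was 0.72 ± 0.15, a factor of 1.65 (adjusted p = 0.0433). The pass was narrow: it was lost without each of 5 of the 6 arrays, with adjusted p from 0.0548 to 0.228, and with the run of array numbers as a block (0.72, adjusted p = 0.194), with differences from 0.60 to 0.79 in these fits. The pass was also lost with the Gapdh covariate (0.79, adjusted p = 0.0988). The Gapdh difference was 0.07 to 0.24 in the low-fat arrays and 5.81, 5.93 and 0.37 in high-fat replicates 12, 13 and 14. Its part was not tested beyond that fit. Gbp2b and Ifi204 had differences of similar size, 0.75 ± 0.26 (adjusted p = 0.234) and 0.69 ± 0.33 (adjusted p = 0.363). Irf7 read 6.49, 6.51 and 6.62 on the low-fat and 6.09, 6.13 and 6.09 on the high-fat diet, with no overlap, and its difference of -0.43 ± 0.15 did not pass (adjusted p = 0.244). Counted by arrays that do not overlap between the diets, 6 of the 9 genes were apart in 129S6 fat (28.3% of all genes), 1 in B6 fat (8.48%), 1 in B6 liver (28.2%), 2 in B6 muscle (40.7%) and 0 in 129S6 liver and muscle (2.93% and 1.85%).

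In B6 fat none of the 9 passed in limma, where 0.279% of all genes did, and 4 had an unadjusted p under 0.05, against 15.1% of all genes. Gbp2 read 7.27, 7.25, 7.14 and 7.41 on the low-fat and 7.44, 7.46, 8.69 and 9.06 on the high-fat diet. The groups barely missed each other, and the 2 highest arrays were replicates 7 and 8. The difference was 0.89 ± 0.31 (adjusted p = 0.25), or 0.72 without replicate 7 and 0.59 without replicate 8. Ifi204 stood at 0.69 ± 0.28 (adjusted p = 0.307), Ifit3 at 0.54 ± 0.18 (adjusted p = 0.25) and Ifit2 at 0.52 ± 0.24 (adjusted p = 0.329). Without replicate 7 these were 0.34, 0.38 and 0.27. Ifi202b stayed at the bottom of its scale, with a difference of -0.04 ± 0.13. In fat the test of whether the diet difference differed between the strains passed in limma for 0 of the 9 and for 0% of all genes, of which 230 had an unadjusted p under 0.05. Among the 9 this was Ifi202b alone, for which the comparison has no clear reading because its B6 side lies at the bottom of the scale.

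By their median difference, macrophage markers were higher in fat on the high-fat diet. The summed signal of the 8 measured markers was 11.43 to 12.17 on the low-fat and 11.91 to 12.57 on the high-fat diet in B6, and 10.58 to 11.02 and 11.6 to 12.53 in 129S6. Adgre1, a defining macrophage marker picked from the 8 after its values were seen, had group means of 8.07 and 9.32 in B6 and 7.25 and 9.60 in 129S6. None of the 8 passed on its own in either strain, their median differences were 0.57 and 0.73, and their part in the fat values of Ifi202b, Ifi204, Gbp2 and Gbp2b was not tested.

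In muscle none of the 9 genes passed for diet in either strain. In B6 muscle 26.7% of all genes passed, and 4 of the 9 had an unadjusted p under 0.05, against 44.7% of all genes. The median of all genes lay at 0.16, and the 4 B6 high-fat arrays had narrow distributions, with SDs of 1.59 to 1.70. The Gapdh difference separated the diets there too, at 0.35 to 0.81 on the low-fat and 1.19 to 3.36 on the high-fat diet, and its part was not tested beyond the fit with it as a covariate. Isg15 had the largest difference, -0.50 ± 0.20 (adjusted p = 0.0677), followed by Gbp2b at 0.42 ± 0.18 (adjusted p = 0.0941), Irf7 at 0.38 ± 0.18 (adjusted p = 0.12) and Ifit1 at 0.38 ± 0.21 (adjusted p = 0.171). Ifi204 stood at -0.35 ± 0.16 (adjusted p = 0.109) and passed with the Gapdh covariate, at -0.53 (adjusted p = 0.0408). In 129S6 muscle 0% of all genes passed and 152 had an unadjusted p under 0.05, with none of the 9 among them. The difference between the strains in the diet difference passed for none of the 9 in muscle, where 3.18% of all genes passed; Gbp2 had the only unadjusted p under 0.05, at -0.51 ± 0.23 (adjusted p = 0.123).

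Other genes of the pathway passed for diet in B6 liver and B6 muscle in both directions, and no more often than genes at large. Of 48 other interferon-induced genes measured, 2 rose and 4 fell in B6 liver, where 18.1% of all genes passed. Ifi27l2a (0.65 ± 0.20, adjusted p = 0.031) and Plscr1 (0.44 ± 0.12, adjusted p = 0.0199) rose; Nmi (-0.77 ± 0.18, adjusted p = 0.00733), Psme1, an activator subunit of the proteasome (-0.68 ± 0.18, adjusted p = 0.0167), Ifi35 (-0.61 ± 0.13, adjusted p = 0.00457) and Lgals9, galectin-9 (-0.52 ± 0.12, adjusted p = 0.00687), fell. Among 13 receptors and signalling genes Socs1, a feedback inhibitor, rose by 0.42 ± 0.12 (adjusted p = 0.0272), and among 6 regulatory factors Irf3, which starts interferon transcription, fell, at -0.66 ± 0.10 (adjusted p = 0.000394). The diet difference of Irf3 and of Lgals9 also differed between the strains, by -0.75 ± 0.14 (adjusted p = 0.00586) and -0.88 ± 0.17 (adjusted p = 0.00537). In B6 muscle, where 14.5% of all genes rose and 12.3% fell, 5 of the 48 rose and 6 fell, among them Plscr1 at 0.67 ± 0.17 (adjusted p = 0.0169) and Psmb8, an inducible proteasome subunit, at -1.03 ± 0.22 (adjusted p = 0.0115). In B6 fat Cxcl9, a chemokine induced by interferon gamma, was the only one of the 48 to pass, at 1.70 ± 0.32 (adjusted p = 0.0483). There 0.279% of all genes passed. In 129S6 mice none of the 48 passed in any tissue. Few genes at large did: 0.158% in liver, 0% in muscle and 0.703% in fat. Others past the threshold in B6 muscle included Adar at 0.63, Ifitm1 at 0.42 and Usp18 at 0.37, which rose, and Psme1 at -1.91, Ifi27 at -1.18 and Ifi30 at -0.80, which fell. Of 9 interferon genes, Ifna4 and Ifnb1 rose in B6 muscle, at 0.69 (adjusted p = 0.0304) and 0.43 (adjusted p = 0.0467), against 14.5% of all genes that rose, and none passed in liver or fat of either strain. In the same comparison 3 of 4 markers of epididymis and testis rose, by 0.29 to 0.55, while Lyz2 of the macrophage markers and Ighm of the B cell markers fell, at -2.26 and -2.25; their part in the muscle values was not tested. Irf9, the DNA-binding partner of the STAT proteins at the ISRE, rose there as well, by 0.46 (adjusted p = 0.0249). Of 18 listed nucleic-acid sensors and adaptors 6 were measured, with median diet differences between -0.11 and 0.18 over the tissues and strains.

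**Figure D4:**
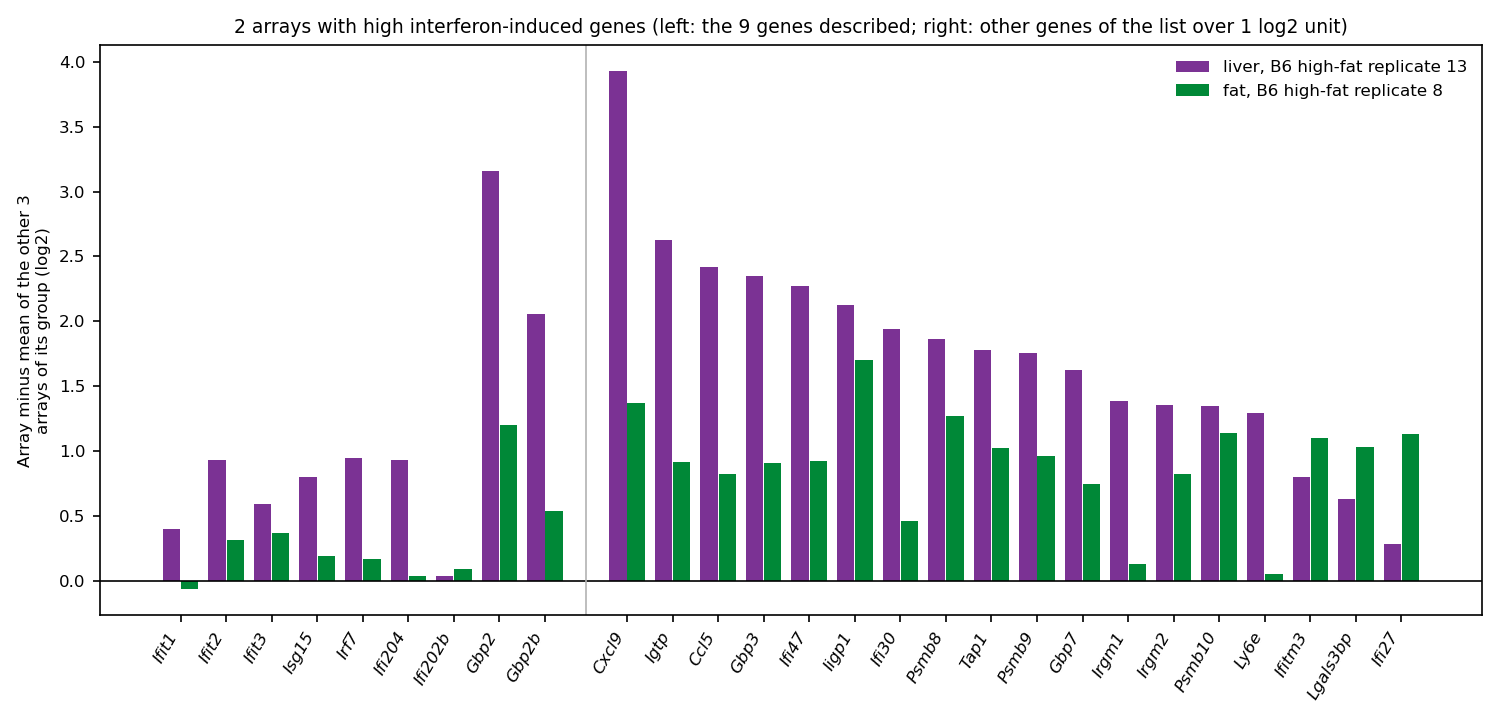
Difference of 1 array from the mean of the other 3 of its group (log2, y axis) for the 9 genes (left) and for the other interferon-induced genes over 1 log2 unit in either array (right), in liver replicate 13 (purple) and fat replicate 8 (green) of the B6 high-fat groups. Gbp2 stands at 3.16 and Cxcl9 at 3.93 in the liver array, while Ifi202b is at 0.04.

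The B6 high-fat liver array that stood apart was high in a particular set of genes. In replicate 13 Gbp2 was 3.16 above the mean of its 3 group mates, Gbp2b 2.06, Irf7 0.95, Ifi204 and Ifit2 0.93 each, Isg15 0.80, Ifit3 0.59 and Ifit1 0.40. Ifi202b read 3.09, against 3.02 to 3.08 in the others. Of the 48 other interferon-induced genes, 29 had their highest liver value there, and 15 were more than 1 log2 unit above the group mates, as were 1.32% of all genes. The largest were Cxcl9, at 9.65 against 5.53 to 5.85, Igtp at 8.22 against 5.45 to 5.69 and Ccl5 at 8.86 against 6.23 to 6.69. The regulatory factors Irf1 and Irf8 were 1.14 and 1.16 above the others, while Ifng read 2.92, against 2.79 to 2.95. Markers of other cells were high in the same array: 4 of 8 macrophage markers were over 1 log2 unit above the group mates, with Lyz2 at 9.82 against 6.78 to 7.18, and 2 of 5 muscle fibre genes were, Acta1 at 9.57 against 5.28 to 6.91 and Tnnt3 at 6.35 against 4.13 to 5.04, while Myh4 was lower, at 6.33 against 6.81 to 7.01. None of the 8 T and NK cell markers was over 1 log2 unit above. However, 5 of these 8 had their highest liver value there, against 8.97% of all genes. Their median difference from the group mates was 0.23, against -0.01 for all genes. The part of these cells in the array's values was not tested.

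In fat, replicate 8 of the B6 high-fat group had the highest value of all fat arrays for 23 of the 48 genes, against 5.41% of all genes. Its Gapdh difference was 2.36, that of replicates 2 and 6 was 0.03 and 0.41, and its part was not tested. Gbp2 was 1.20 above its group mates, Gbp2b 0.54, Iigp1 1.71, Cxcl9 1.38 and Psmb8 1.27, whereas Ifit1, Ifi204 and Ifi202b were within 0.10. In replicate 7 of the same group Ifi204, Ifit2, Ifit3 and Ifit1 were at their highest fat values, while Isg15 read 6.14 against 6.84 to 7.00 and Irf7 6.05 against 6.57 to 6.76.

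**Figure D5:**
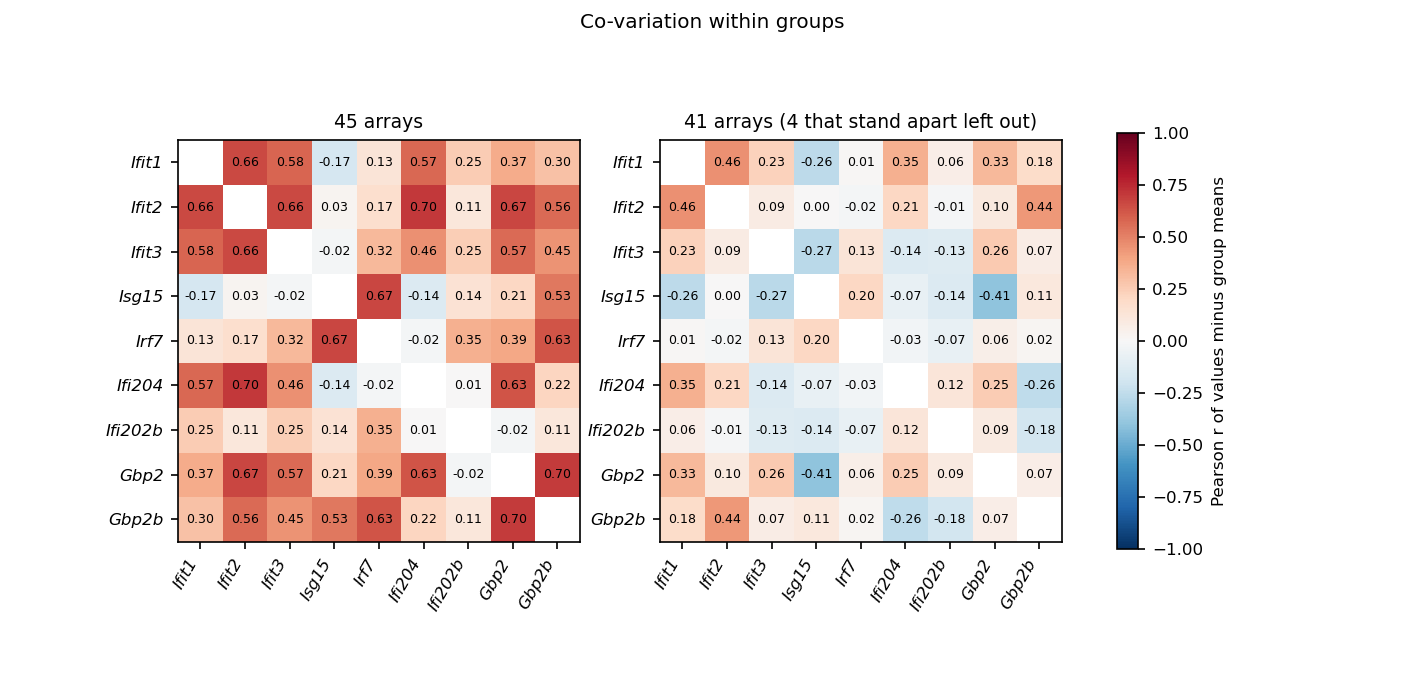
Pearson r between the 9 genes over arrays after the mean of each of the 12 groups was subtracted, for all 45 arrays (left) and for 41 (right). The 4 left out are liver replicate 13, fat replicates 7 and 8 and muscle replicate 9. Of the 36 pairs, 13 exceed 0.5 on the left and 0 on the right.

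Within groups the co-variation of the genes was smaller without these arrays, which were singled out partly for their values of the same genes, so that the fall follows in part from that choice. After the group means were subtracted, the median r over the 36 pairs of the 9 genes was 0.34 over 45 arrays, against 0.01 for all gene pairs. It was 0.22 without liver replicate 13, and 0.07 over the 41 arrays that remained without fat replicates 7 and 8 and muscle replicate 9 as well. Pairs above 0.5 numbered 13, 8 and 0, where 9.46%, 9.81% and 6.33% of all gene pairs exceeded that value; arrays of a group share strain, diet and tissue, and each array shares its RNA quality among all its genes. The genes nearest to Gbp2 were Cxcl9 (r = 0.89), Gbp7 (0.82) and Samhd1 (0.80), and those nearest to Gbp2b were Cxcl9 (0.86), Acod1 (0.80) and Tap1 (0.79). Without liver replicate 13 these were 0.59, 0.63 and 0.42 for Gbp2 and 0.58, 0.35 and 0.51 for Gbp2b. Ifit2 was nearest to Gbp7 (0.79), Gbp3 (0.76) and Gimap4 (0.73), and Isg15 to Uba7 (0.72), its activating enzyme, Mov10 (0.71) and Ube2l6 (0.70), its conjugating enzyme. Irf7 was nearest to Krt13, Cd7 and Gzmb (0.77 to 0.72), Ifit1 to Ppp4r2, Ncoa6 and Bcl2l2 (0.80 to 0.77), Ifit3 to Rit1, Zfp90 and Vcam1 (0.76 to 0.70), Ifi204 to Anxa3, Timp3 and Baz1b (0.84 to 0.81) and Ifi202b to Nr0b1, Spryd7 and Lin9 (0.72 to 0.70).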

How the data were processed

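The deposited values are log2 signals of 12488 probe sets, made by the authors with RMA per the submitters' processing notes; the sources used here give neither its version nor whether all tissues were normalized together. The deposited distributions were not equal: array medians lay between 6.07 and 6.24 and SDs between 1.57 and 1.98. Probe sets with 1 gene symbol were kept, 1 a gene by highest mean over the 45 arrays. Group means of each tissue were fitted in limma 3.58.1 (R 4.3.3) with moderated variances; tissue contrasts came from a fit of all 12 groups. Two-sided p-values had Benjamini-Hochberg adjustment over 8251 genes, called at 0.05, and p-values measure the spread between pools. The genes and lists were chosen with earlier results of these data known. The text names every one of the 9 genes, listed genes past the threshold (at most 4 each way) and the 3 genes of highest r; Ifng, Adgre1 and the genes named in single arrays were chosen after their values were seen. A run of array numbers means numbers that lie close together in the sample names within a tissue, with gaps in some runs. The runs were drawn here and are not named in the labels. Replicate numbers shared between tissues were not used to pair arrays in the main fit. Of 12 such pairs, 2 had an r of deviations above 0.1, which cannot decide whether they came from the same mice. The number of arrays limits precision. The fit was tested on simulated data. Figures used matplotlib 3.10.9 in Python 3.11.15. Alternatives were all probe sets, the brightest probe set within a tissue, leaving out the dimmest genes (1 in 3), quantile normalization, an intensity trend with robust variances, the Gapdh covariate, the 2 groups alone, the run and replicate blocks, and each array left out; fits within 1 run were added after seeing the data.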

Additional observations from a re-analysis of the deposited data

Results flagged for a closer look

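In 81 combinations of gene and group of 4 arrays, 6 had an array far from its group mates, where chance gives about 1 in 20. Of these, 3 were liver replicate 13 of the B6 high-fat group: Gbp2 at 8.76 with the nearest other array at 5.71, Gbp2b at 7.24 with the nearest at 5.32, and Irf7 at 8.03 with the nearest at 7.16. Ifi204 read 6.68 in replicate 4 of the B6 low-fat liver group, with the nearest at 6.31. Ifit1 read 5.06 in replicate 4 of the B6 low-fat fat group, with the nearest at 4.46. Ifit3 read 5.17 in replicate 9 of the 129S6 low-fat muscle group, with the nearest at 4.55.

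The strain difference ran opposite ways in different tissues for 2 genes, with no overlap between the strains in either direction. On the low-fat diet Gbp2b was higher in B6 liver, by 0.20, and lower in B6 muscle, at -0.65, and B6 fat, at -1.31. On the high-fat diet Ifi204 was higher in B6 liver, by 1.05, and lower in B6 muscle, at -0.65. The differences between tissues were not tested, and over all genes 558 had such opposite differences in 2 tissues on 1 diet.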

How the results depend on the processing

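The count of the 9 genes past the threshold for diet in B6 liver, 1, was 0 without the dimmest genes or after quantile normalization, 3 with the Gapdh covariate, and 0 to 2 with each array left out (0 without low-fat replicate 1, 2 or 3 or high-fat replicate 15, 2 without high-fat replicate 16). In B6 muscle it was 0, and 1 with the Gapdh covariate. In 129S6 fat it was 1, and 0 without the dimmest genes, after quantile normalization, with the Gapdh covariate, with only the 2 groups compared, with the run as a block and with run F2 alone, and 0 to 1 with each array left out (1 without low-fat replicate 11). Ifit1 and Ifi202b, which passed in B6 liver and 129S6 fat, are themselves among the dimmest genes left out. They were brighter than only 12.7% and 2.5% of genes over all arrays. Neither could pass in that setting, so it says nothing about how firm the 2 results are. Leaving out the dimmest genes, which removes several of the 9, gave 2 in place of 5 between fat and muscle and 4 in place of 8 between fat and liver. With each array left out, the counts were 3 to 4 between liver and muscle, 4 to 6 between fat and muscle and 8 between fat and liver. The count without overlap between the strains was 5 to 6 in liver, 4 to 7 in muscle (7 without 129S6 replicate 9) and 4 to 5 in fat on the low-fat diet, and 6 to 7, 5 to 6 and 4 to 6 on the high-fat diet. After quantile normalization it was 2 in muscle on the high-fat diet. In fat it was then 6 on the low-fat and 5 on the high-fat diet. The same normalization gave tissue counts of 4 between liver and muscle and 6 between fat and muscle. With the replicate block the tissue counts were 3, 5 and 8, as without it. No difference changed sign past a threshold. The run block could not be estimated for diet in B6 liver or for the difference between the strains in liver. Ifi202b is too dim for its B6 levels to be ranked.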
